A study of Mus musculus with 13 samples.

Results

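Complexes II, III and V and cytochrome c make up the segment of oxidative phosphorylation that takes electrons from succinate and from ubiquinol and ends in ATP synthesis, and their nuclear genes were followed here in gastrocnemius muscle. Members were chosen by symbol: Sdha, Sdhb, Sdhc, Sdhd, Cyc1, Cycs, Bcs1l, Ttc19 and every gene whose symbol starts with Sdhaf, Uqcr, Uqcc or Atp5. This gave 40 of the 21868 genes in the table, made up of 4 subunits of complex II, 9 of complex III, cytochrome c itself, 5 subunits of the F1 head and 12 of the Fo sector and stalk of complex V, and 9 assembly factors. No pseudogene row met the rule. All 40 passed the filter of a mean normalized count of at least 10, as did 12303 genes in all.

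The 13 male mice were labelled C57BL/6, and are C57BL/6N in the study's account of its sequencing data. They were 7 weeks old on arrival, had 1 week to acclimatize, were fed a diet with 60 kcal% fat for 15 to 17 weeks to make them obese, and were then returned to chow for the 3 weeks of treatment. Vehicle mice (PBS injections and placebo, n = 5) were compared with mice given semaglutide, a glucagon-like peptide 1 receptor agonist, at 30 nM/kg/day by intraperitoneal injection with placebo (n = 5), and with mice given the same semaglutide dose together with a ketone ester drink of 0.114 g/mL (n = 3). Since every mouse went from the high-fat diet to chow, the vehicle mice had been made obese by diet and are not lean controls. A group given ketone ester without semaglutide was not analysed here. Poly(A) RNA of the whole muscle was sequenced, 1 library per mouse, so that fewer cells of a type and less RNA per cell cannot be told apart. All 3 comparisons draw on the same 13 mice, and each pair of comparisons shares a group.

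In the respiratory chain, complex II (succinate dehydrogenase) is also an enzyme of the tricarboxylic acid cycle and passes electrons from succinate to ubiquinone. Complex III (the cytochrome bc1 complex) hands electrons from ubiquinol to cytochrome c, a small soluble haem protein that carries them to complex IV, and complex V (ATP synthase) uses the proton gradient to make ATP. Complex II is built from nuclear gene products alone, whereas complexes III and V each need subunits from the mitochondrial genome. Gastrocnemius is a mixed muscle rich in fast fibres, and the fast myosin gene Myh4 had a mean normalized count of 1065360 in vehicle mice.

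Depth was uneven in the semaglutide group and close to even in the other groups, with 15621189 to 17101549 reads assigned to genes in vehicle mice, 15319471 to 23498162 after semaglutide and 16149274 to 17175998 after the combined treatment. Normalized counts are reads divided by a factor for each library. Differences are given on the scale of log2(normalized count + 1), so that -1 is a halving, with the standard error (SE) of limma, and adjusted p-values are Benjamini-Hochberg values over all 12303 genes tested, with 0.05 as the threshold for a call. These p-values set each difference of group means against a spread between mice that is pooled over the 3 groups.

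Several factors that drive nuclear respiratory genes have short, well-known binding motifs, and the promoters of a few members are shown to place the genes before their values. The window ran from 250 bases before to 50 bases after the transcription start in RefSeq on GRCm38.p6, and 33 of the 40 members had an entry. Atp5a1, Atp5mpl, Cyc1, Sdhc, Uqcrb, Uqcrc2 and Uqcrq had none. The letters searched on both strands were AAGGTCA for oestrogen-related receptors (ERR), CCGGAAG for the GA-binding protein (GABP), GCATGCGC for nuclear respiratory factor 1 (NRF1) and AAGATGG for YY1. An NRF1 match can overlap its own reverse complement. Capitals mark the matches. The first 3 promoters belong to the genes that all encode the same mature c subunit of the Fo rotor, Atp5g3 (chr2:73911277-73911576, minus strand), Atp5g1 (chr11:96075582-96075881, minus strand) and Atp5g2 (chr15:102670998-102671297, minus strand), which are followed side by side further on. The next 4 are examples that hold matches, for the electron carrier and for each complex, while Sdha, Uqcrfs1 and Atp5b held none. These 4 are Cycs (chr6:50566520-50566819, minus strand), Sdhb (chr4:140961021-140961320, plus strand), Uqcr11 (chr10:80406772-80407071, minus strand) and Atp5k (chr5:108434350-108434649, minus strand).
Atp5g3: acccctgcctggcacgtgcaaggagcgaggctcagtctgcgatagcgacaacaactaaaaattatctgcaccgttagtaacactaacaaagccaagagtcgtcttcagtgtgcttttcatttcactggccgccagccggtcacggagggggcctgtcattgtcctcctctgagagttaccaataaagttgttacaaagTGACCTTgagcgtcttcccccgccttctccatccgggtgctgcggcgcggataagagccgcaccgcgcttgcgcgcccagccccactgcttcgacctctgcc
Atp5g1: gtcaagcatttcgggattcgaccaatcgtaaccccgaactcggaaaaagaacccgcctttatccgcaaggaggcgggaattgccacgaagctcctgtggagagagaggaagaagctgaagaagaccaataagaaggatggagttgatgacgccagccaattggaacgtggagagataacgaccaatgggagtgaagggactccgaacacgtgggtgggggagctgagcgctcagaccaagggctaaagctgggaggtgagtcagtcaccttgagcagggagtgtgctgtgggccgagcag
Atp5g2: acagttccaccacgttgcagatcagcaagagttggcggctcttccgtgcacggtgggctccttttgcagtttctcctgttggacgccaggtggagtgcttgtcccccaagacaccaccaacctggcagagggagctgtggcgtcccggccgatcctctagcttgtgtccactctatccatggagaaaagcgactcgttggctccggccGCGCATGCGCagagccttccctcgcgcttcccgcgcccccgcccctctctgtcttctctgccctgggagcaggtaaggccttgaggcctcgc
Cycs: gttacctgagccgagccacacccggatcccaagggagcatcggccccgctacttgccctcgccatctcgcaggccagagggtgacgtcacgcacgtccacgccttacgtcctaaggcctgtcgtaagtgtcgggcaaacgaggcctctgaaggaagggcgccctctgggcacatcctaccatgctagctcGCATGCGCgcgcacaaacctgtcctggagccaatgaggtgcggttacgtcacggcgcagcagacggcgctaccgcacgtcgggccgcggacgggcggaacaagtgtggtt
Sdhb: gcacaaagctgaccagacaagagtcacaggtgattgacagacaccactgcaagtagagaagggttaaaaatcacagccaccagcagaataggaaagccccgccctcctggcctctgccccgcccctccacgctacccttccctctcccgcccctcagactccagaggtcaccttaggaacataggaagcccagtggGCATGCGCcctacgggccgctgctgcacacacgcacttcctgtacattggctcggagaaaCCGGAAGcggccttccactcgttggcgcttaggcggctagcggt
Uqcr11: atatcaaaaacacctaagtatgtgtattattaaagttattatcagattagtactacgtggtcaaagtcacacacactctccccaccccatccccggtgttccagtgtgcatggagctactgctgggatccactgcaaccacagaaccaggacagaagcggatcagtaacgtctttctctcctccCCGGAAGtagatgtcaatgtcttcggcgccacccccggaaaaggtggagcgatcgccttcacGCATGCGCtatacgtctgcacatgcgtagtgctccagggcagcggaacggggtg
Atp5k: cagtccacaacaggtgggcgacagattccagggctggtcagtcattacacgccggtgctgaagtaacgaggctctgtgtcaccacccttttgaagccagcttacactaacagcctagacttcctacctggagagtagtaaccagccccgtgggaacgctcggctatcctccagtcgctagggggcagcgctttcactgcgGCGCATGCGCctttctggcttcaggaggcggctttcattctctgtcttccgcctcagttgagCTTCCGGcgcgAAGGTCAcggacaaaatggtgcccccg

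The GABP letters were in 14 of the 33 promoters (42.4%), against 9.93% of all 27025 genes with an entry and 19.9% of the 9737 genes tested here that had one. The NRF1 letters were in 8 (24.2%, against 3.05% of all genes and 5.94% of tested genes), the ERR letters in 6 (18.2%, against 5.38% and 3.83%) and the YY1 letters in 4 (12.1%, against 7.28% and 8.47%). No match of the 4 was found in 10 promoters. A match is a run of letters and not a measured binding site. The 10 members without a match included 9 called lower in semaglutide-treated mice, with a median difference of -0.43, and the 23 with at least 1 match included 16 called lower, with a median of -0.44.

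In semaglutide-treated mice the members of all 3 complexes and cytochrome c stood below vehicle. Of the 40 members, 32 were called lower and 0 higher, against a background of 13.2% of all genes tested called lower. Their median difference was -0.46, while the median over all genes tested was -0.003. The 2 members above 0 were Atp5g2 and Uqcc2, neither of them called. In 30 of the 40 members the highest semaglutide value was below the lowest vehicle value, which was so for 7.45% of all genes tested. The 46 nuclear complex I genes with an Nduf symbol gave 34 called lower and a median of -0.45, and the 14 tested complex IV subunit genes gave 10 and -0.50; no difference between the complexes was tested.

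With ketone ester added to semaglutide, the members stood above semaglutide alone. All 40 members had a positive difference, 34 of them called higher and 0 called lower. Of all genes tested, 9.09% were called higher. The median difference of the members was 0.60, against -0.0002 over all genes tested. In 35 members all 3 semaglutide + ketone ester–treated mice lay above all 5 semaglutide-treated mice, as did 9.96% of all genes tested. The count depended on the mice used, as did the count over all genes. Without mouse 22, the highest of its group in 37 of 40 members, 18 members were called higher, against 3.58% of all genes. A fit with only the 2 groups compared called 17 members, against 3.18% of all genes. The share of members called thus fell together with the background.

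Against vehicle, no member was called in semaglutide + ketone ester–treated mice by limma, and 0 had an unadjusted p under 0.05. The edgeR and DESeq2 tests on recovered reads called 0 as well. The background here was 0.236% of all genes called in either direction. The differences ran from -0.28 for Sdhaf3 to 0.47 for Atp5g2 with a median of 0.13, 35 were above 0 and 5 below, and the lowest adjusted p was 0.481. Without mouse 22 the median was 0.02, with 23 above 0 and 17 below. Groups did not overlap in 4 members, all higher, where 11.3% of all genes tested did not overlap in either direction. The absence of a call does not show that the groups had equal levels.

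**Figure D1:**
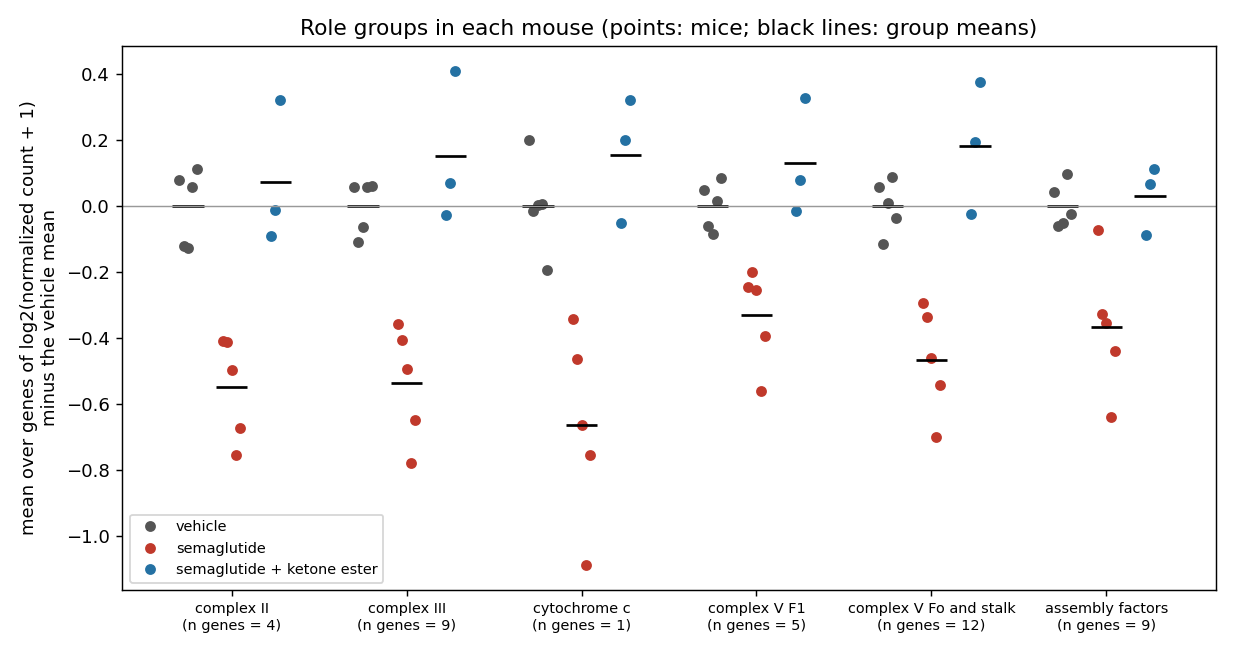
Mean over the genes of each role group of log2(normalized count + 1) minus the vehicle mean (y axis) for each mouse, with role groups along the x axis; grey points are vehicle (n = 5), red semaglutide (n = 5) and blue semaglutide + ketone ester (n = 3), and black lines are group means. Semaglutide-treated mice lie below all vehicle mice in every role group, and mouse 22 is the highest blue point throughout (0.41 for complex III and 0.11 for assembly factors).

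The same mice stood high or low within their group in most members. Averaged over all 40 members and set against the vehicle mean, semaglutide-treated mouse 13 stood at -0.27, mouse 14 at -0.34, mouse 15 at -0.43, mouse 16 at -0.70 and mouse 17 at -0.54. Mouse 16 was the lowest of its group in 36 members, and mouse 13 the highest in 25. Mouse 16 also had the highest values of its group for the adipocyte markers Adipoq, Plin1, Cfd and Lep. Its Adipoq normalized count was 1452, against 16.9 to 147 in the other semaglutide-treated mice. Within the group, the macrophage and leukocyte markers Ptprc, Cd68, Adgre1 and Csf1r were also highest in mouse 16. Of the myofibre genes, Acta1, Ckm, Tnnt3, Mylpf and Myh4 were lowest in it, Myh1 was highest, and Myh2 and Myh7 were neither. Whether any of this bears on its low member values was not tested. The vehicle mice lay between -0.09 and 0.07, and mice 19, 21 and 22 of the combined treatment at -0.05, 0.10 and 0.31. The spread within a group was wider in both treated groups than in vehicle, with a median coefficient of variation over the members of 6.83% in vehicle, 13.0% in semaglutide-treated and 14.6% in semaglutide + ketone ester–treated mice.

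**Figure D2:**
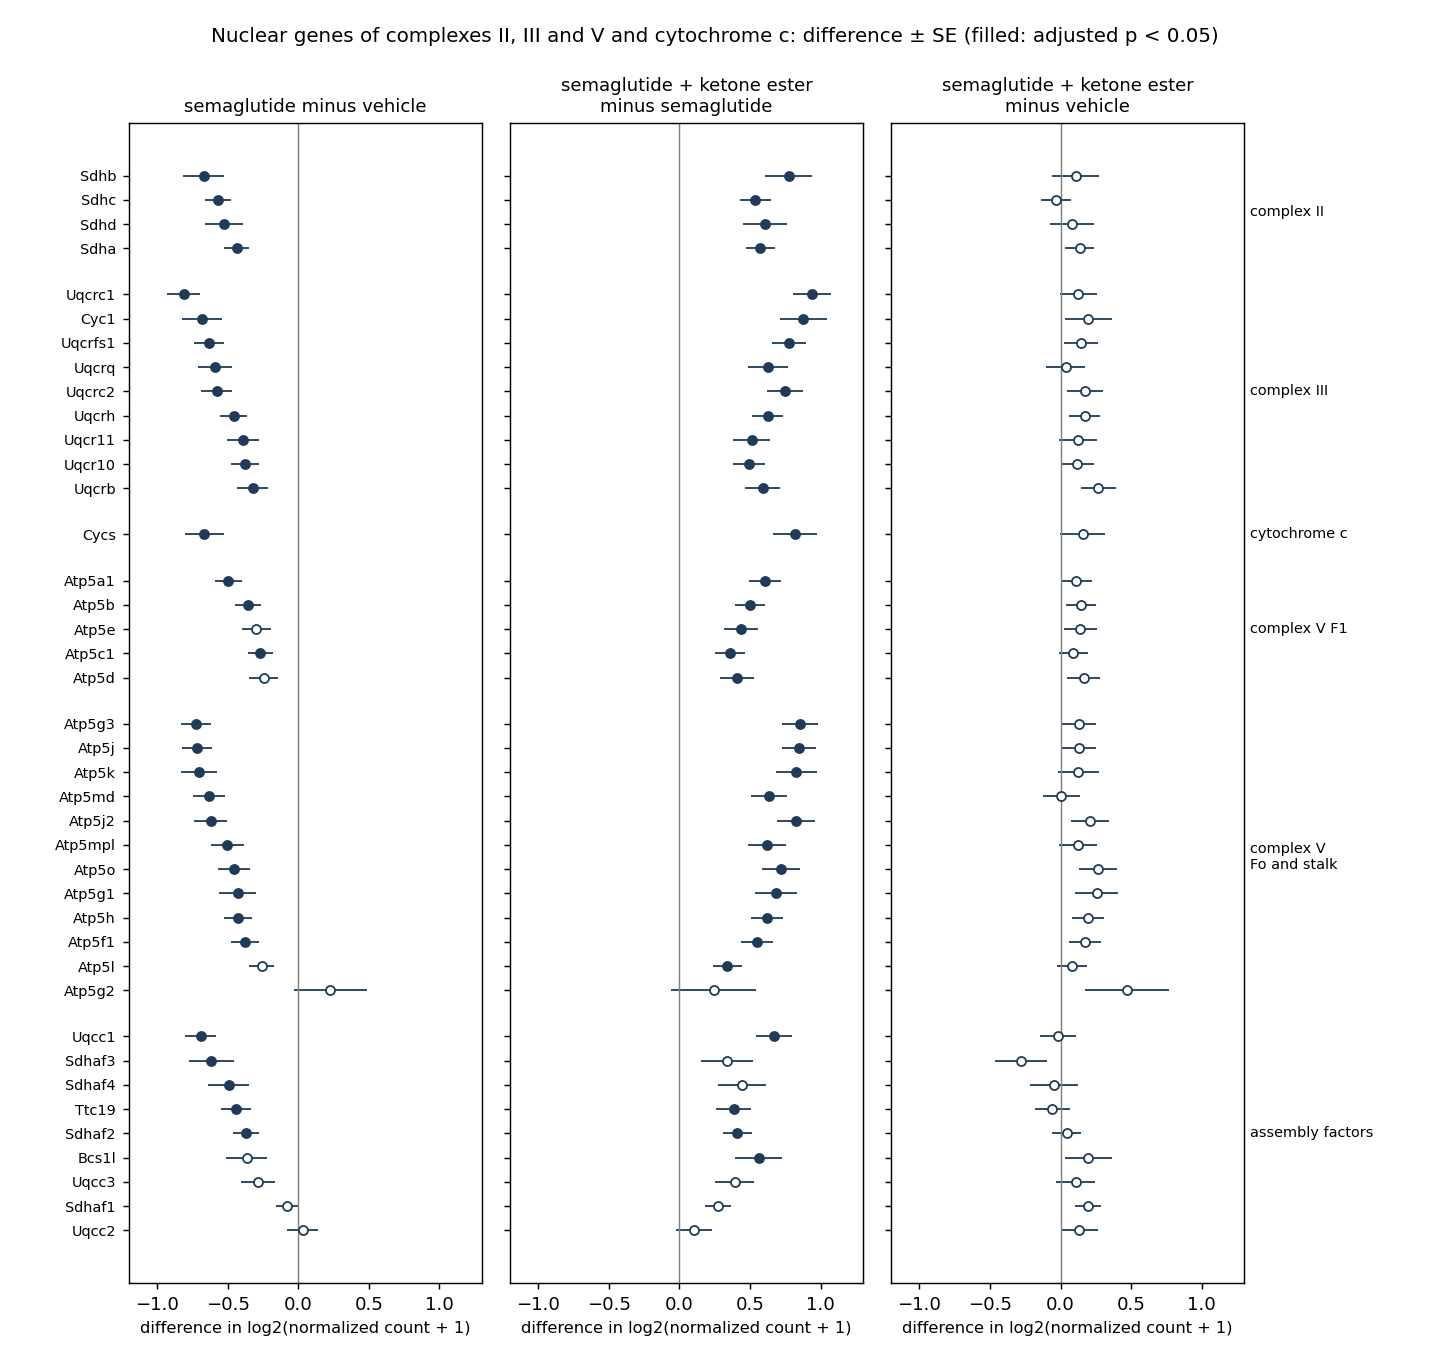
Difference in log2(normalized count + 1) with its SE (x axis) for each of the 40 members (y axis, ordered by role), for the 3 comparisons; filled points have an adjusted p under 0.05 (limma, all genes). In the left panel 32 points are filled and all lie below 0, in the middle panel 34 are filled and all lie above 0, and in the right panel none is filled.

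Complex II fell as a whole. All 4 subunits were called lower after semaglutide (median -0.55) and all 4 higher with ketone ester than with semaglutide alone (median 0.59). The lowest adjusted p belonged to Sdhc, which encodes a membrane anchor subunit with a share in ubiquinone and haem binding. Its normalized counts in vehicle mice 1 to 5 were 5115, 4329, 4323, 4676 and 4862, in semaglutide-treated mice 13 to 17 they were 3370, 3545, 3120, 2878 and 2808, and in semaglutide + ketone ester–treated mice 19, 21 and 22 they were 4383, 4223 and 5094. The semaglutide values lay below all others, and the ketone ester values overlapped the vehicle values. The difference was -0.57 ± 0.09 (SE) for semaglutide against vehicle (limma, adjusted p = 0.00157) and 0.54 ± 0.11 for the combination against semaglutide (adjusted p = 0.00633).

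Sdha, the flavoprotein that oxidizes succinate, had normalized counts of 14933, 14262, 15043, 16632 and 16023 in vehicle, 10889, 11678, 12243, 10331 and 11705 with semaglutide, and 14910, 16353 and 19731 with the combination. The semaglutide mean was 73.9% of the vehicle mean, and the groups did not overlap (difference -0.44 ± 0.09, limma adjusted p = 0.00534). Sdhd, the other membrane anchor, was the subunit of this complex with the highest adjusted p. It had 3623, 3222, 3004, 3393 and 3666 in vehicle, 3090, 2408, 2469, 1864 and 2062 with semaglutide and 3121, 3452 and 4196 with the combination. Mouse 13 overlapped the vehicle range, and the difference was -0.53 ± 0.13 (limma adjusted p = 0.0151). Sdhb, the iron-sulfur subunit, fell to 63.0% of the vehicle mean, the largest fall within complex II.

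Complex III was the largest group in which every subunit changed. All 9 were called lower after semaglutide, between -0.81 and -0.32 (median -0.58), without overlap between the groups in any of them, and all 9 were called higher with the combination than with semaglutide (median 0.63, no overlap in any). The calls after semaglutide were lost for Uqcrb, Uqcr10 and Uqcr11 with columns rescaled to equal totals, and for Uqcrb also under TMM scaling and with only the 2 groups compared. Uqcrc1, a large matrix-facing core subunit, had the lowest adjusted p of all 40 members. Its normalized counts were 10343, 9270, 9272, 10323 and 10528 in vehicle, 6850, 6121, 5623, 4794 and 5127 with semaglutide, and 9500, 10219 and 13120 with the combination. That is a semaglutide mean of 57.3% of vehicle (-0.81 ± 0.12, limma adjusted p = 7.6e-04), the largest fall of any member, and a rise of 0.94 ± 0.13 with ketone ester (adjusted p = 0.00194).

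The Rieske iron-sulfur protein, which takes the first electron from ubiquinol, is encoded by Uqcrfs1. It was at 6101, 5482, 5848, 6160 and 6131 in vehicle, 3767, 4099, 4117, 3290 and 3938 with semaglutide and 5551, 6316 and 8098 with the combination. Every semaglutide value was below every other value (-0.63 ± 0.10, limma adjusted p = 0.00172). The haem-bearing cytochrome c1 gene, Cyc1, fell to 63.2% of vehicle (-0.68 ± 0.14) and the second core subunit, Uqcrc2, to 67.1% (-0.58 ± 0.11).

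The other subunits of complex III are small and carry no redox centre. Uqcrb, a matrix-side subunit, had the highest adjusted p of complex III, with 2640, 2407, 2350, 2496 and 2359 in vehicle, 2241, 2015, 2191, 1552 and 1875 with semaglutide and 2644, 2878 and 3368 with the combination. The semaglutide values stayed below vehicle by a narrow gap and all 3 combination values were above all vehicle values (-0.32 ± 0.11 against vehicle, limma adjusted p = 0.0455). Uqcr10 (77.5% of the vehicle mean), Uqcr11 (76.7%) and the hinge protein gene Uqcrh (73.2%) were also called lower, by 0.38 to 0.46.

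Uqcrq and Uqcr11 were among the genes that the study also measured by RT-qPCR. Uqcrq, also called the ubiquinone-binding protein, stood at 4237, 3810, 3864, 4501 and 4552 in vehicle, 3055, 3263, 2793, 2380 and 2480 with semaglutide and 3882, 3813 and 5332 with the combination. It was lower by 0.59 ± 0.12 with semaglutide (limma adjusted p = 0.00509) and differed from vehicle by 0.04 ± 0.14 with the combination. Uqcr11 stood at 2515, 2222, 2399, 2607 and 2724 in vehicle, 2153, 2168, 1913, 1571 and 1754 with semaglutide and 2576, 2398 and 3219 with the combination, with mouse 14 only just below the lowest vehicle mouse. Its difference was -0.39 ± 0.11 (limma adjusted p = 0.0266).

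Cytochrome c, encoded by Cycs, fell too. Normalized counts were 2394, 2065, 2087, 2095 and 1823 in vehicle, 1643, 1512, 1314, 980 and 1234 with semaglutide and 2011, 2393 and 2603 with the combination. The groups did not overlap, with a fall of 0.66 ± 0.14 on the log2 scale under semaglutide (limma adjusted p = 0.00539) and a difference of 0.82 ± 0.16 for the combination against semaglutide (adjusted p = 0.00576). Within each mouse the log2 ratio of Cycs to its electron donor Cyc1 averaged -1.48 ± 0.17 (SD, n = 5) in vehicle, -1.46 ± 0.13 (n = 5) with semaglutide and -1.52 ± 0.13 (n = 3) with the combination. The ratio difference between semaglutide and vehicle was 0.02 (2-sided exact permutation test, p = 0.889), smaller than the spread between mice, and its sign changed when single mice were left out.

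**Figure D3:**
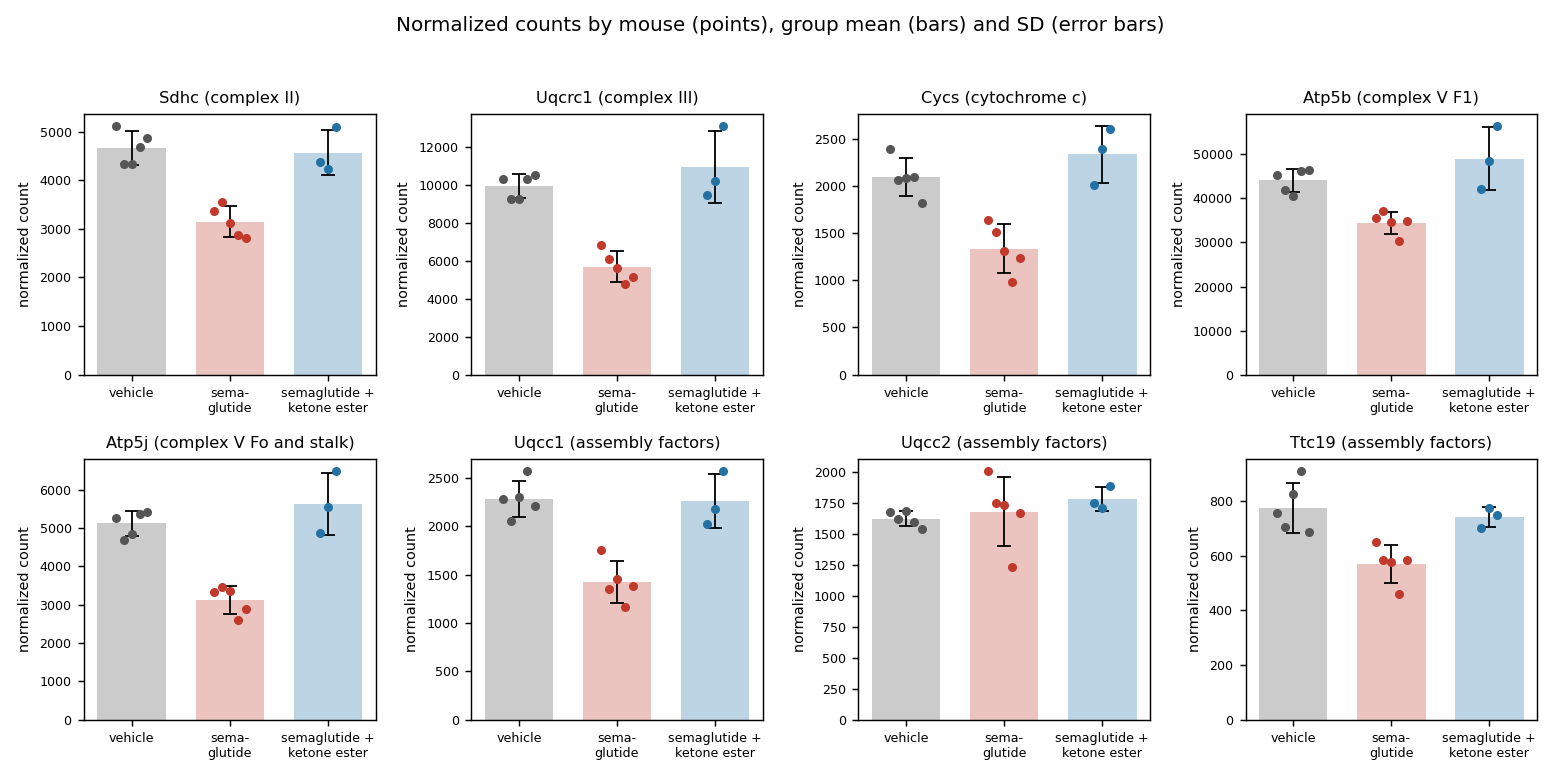
Normalized counts (y axis) of 8 members by group (x axis); points are mice, bars are group means and error bars are SD (n = 5, 5 and 3). In the panels of Sdhc, Uqcrc1, Cycs, Atp5b, Atp5j and Uqcc1 all 5 red points lie below all grey points, while for Uqcc2 the red points (1231 to 2005) enclose the grey ones (1539 to 1684).

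ATP synthase as a whole gave 13 of 17 subunits called lower (median -0.43) and 16 of 17 called higher with ketone ester (median 0.62), and its parts differed in size. The F1 head, which makes ATP in the matrix, had 3 of 5 subunits called lower with a median of -0.30. The Fo sector and stalk, which carry protons and hold the head in place, had 10 of 12 called lower with a median of -0.48. The difference between the parts was not tested. With columns rescaled to equal totals the calls after semaglutide were lost for Atp5b and Atp5c1 of F1 and for Atp5f1 and Atp5g1. Atp5c1 was also lost under TMM scaling, with quantile normalization and with only the 2 groups compared. Without the filter on low values, Atp5c1 and Atp5g1 were lost.

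The alpha and beta subunits form the ring of the head. Atp5a1, the alpha subunit, had normalized counts of 35878, 32278, 31689, 34611 and 36470 in vehicle, 26478, 26386, 24829, 20276 and 23698 with semaglutide and 32584, 36883 and 41795 with the combination. It fell to 71.2% of the vehicle mean without overlap (-0.49 ± 0.10, limma adjusted p = 0.00424). Atp5b, the catalytic beta subunit, stood at 45425, 41901, 40539, 46121 and 46490 in vehicle, 35507, 37249, 34540, 30342 and 34793 with semaglutide and 42175, 48543 and 56455 with the combination. It fell to 78.2% of vehicle (-0.36 ± 0.09, limma adjusted p = 0.0162). Per kilobase of annotated exon Atp5b was the most abundant member, at a mean of 23014 normalized counts in vehicle, followed by Atp5a1 at 11772 and Atp5g3 at 9581.

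The gamma, delta and epsilon subunits form the central stalk of F1. Atp5d, the delta subunit, stood at 5035, 4710, 4823, 5369 and 5441 in vehicle, 4737, 4642, 4563, 3638 and 3942 with semaglutide and 5389, 5108 and 6658 with the combination. Mouse 13 lay within the vehicle range, and the difference of -0.24 ± 0.10 was not called (limma adjusted p = 0.10). Atp5e, the epsilon subunit and the third gene of the RT-qPCR panel, had 3736, 3549, 3628, 3602 and 3831 in vehicle, 3114, 3317, 3378, 2527 and 2695 with semaglutide and 3695, 3755 and 4762 with the combination. Its groups did not overlap, and it missed the threshold with an adjusted p of 0.0515 (-0.30 ± 0.10, limma); leaving out mouse 13, 14, 15 or 22 took it below, to between 0.0396 and 0.0481. Both edgeR and DESeq2 called Atp5e lower, as did limma with quantile normalization, with sample weights and with a variance trend. Atp5c1, the gamma subunit that rotates inside the head, was called at -0.27 ± 0.09 (limma adjusted p = 0.0469).

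In the Fo sector and stalk, Atp5j, coupling factor 6 of the peripheral stalk, had the lowest adjusted p. It stood at 5272, 4700, 4848, 5365 and 5428 in vehicle, 3325, 3473, 3370, 2607 and 2891 with semaglutide and 4881, 5547 and 6487 with the combination, without overlap of semaglutide with either other group (-0.71 ± 0.10, limma adjusted p = 8.7e-04; 0.85 ± 0.12 for the combination against semaglutide, adjusted p = 0.00194). The other stalk genes Atp5f1 (subunit b, 77.2% of the vehicle mean), Atp5h (subunit d, 74.5%) and Atp5o (the oligomycin sensitivity-conferring protein, 73.5%) fell by less, between 0.38 and 0.46. Among the small membrane subunits, Atp5k (subunit e, 61.7%), Atp5j2 (subunit f, 65.4%), Atp5md (65.1%) and Atp5mpl (71.2%) were called lower, and Atp5l (subunit g, 84.0%) was not (limma adjusted p = 0.0561).

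The rotor ring of Fo is built from the c subunit, and 3 nuclear genes encode the same mature protein behind different import sequences. Atp5g3 was at 7344, 6518, 6294, 7342 and 7185 normalized counts in vehicle, 4850, 4242, 4252, 3789 and 3883 with semaglutide and 6427, 7309 and 9247 with the combination. It fell to 60.6% of the vehicle mean, without overlap (-0.73 ± 0.11, limma adjusted p = 9.4e-04). Atp5g1 was at 3619, 3122, 3441, 3490 and 3782 in vehicle, 2942, 2999, 2535, 2085 and 2491 with semaglutide and 3342, 4092 and 5264 with the combination. It fell to 74.8% (-0.43 ± 0.13, limma adjusted p = 0.0325).

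Atp5g2 was not called. It was at 24, 19.3, 39.6, 32.2 and 12.8 in vehicle, 39.7, 27, 22.2, 27.2 and 26.9 with semaglutide and 32.8, 41.1 and 27.6 with the combination, and the groups overlapped throughout (0.23 ± 0.26, limma adjusted p = 0.552). Its counts were the lowest and its SE the widest of all members. Per kilobase of annotated exon, Atp5g3 stood at 9581 normalized counts in vehicle, Atp5g1 at 711 and Atp5g2 at 35. The level of Atp5g1 rests on its length, since all its annotated transcripts together cover 4912 exon bases, against 724 for Atp5g3 and 731 for Atp5g2, and a shorter transcript would give a higher level. The promoter shown for Atp5g3 held an ERR match 52 bases before the start, that of Atp5g2 an NRF1 match and that of Atp5g1 none of the 4 motifs.

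The balance of Atp5g1 to Atp5g3 was compared within each mouse. The log2 ratio of normalized counts was -1.02, -1.06, -0.87, -1.07 and -0.93 in vehicle, -0.72, -0.50, -0.75, -0.86 and -0.64 with semaglutide and -0.94, -0.84 and -0.81 with the combination. All semaglutide-treated mice were above all vehicle mice, by 0.30 on average (2-sided exact permutation test, p = 0.00794, which is the smallest that 5 against 5 mice can give). Adjusted over the 12 ratio comparisons made, p was 0.0952, so the difference did not pass the threshold. The ratio of Atp5g2 to Atp5g3 was higher by 0.95 in the same comparison (exact permutation p = 0.0159, adjusted p = 0.0952), and no combination against semaglutide ratio had an exact p under 0.0714.

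**Figure D4:**
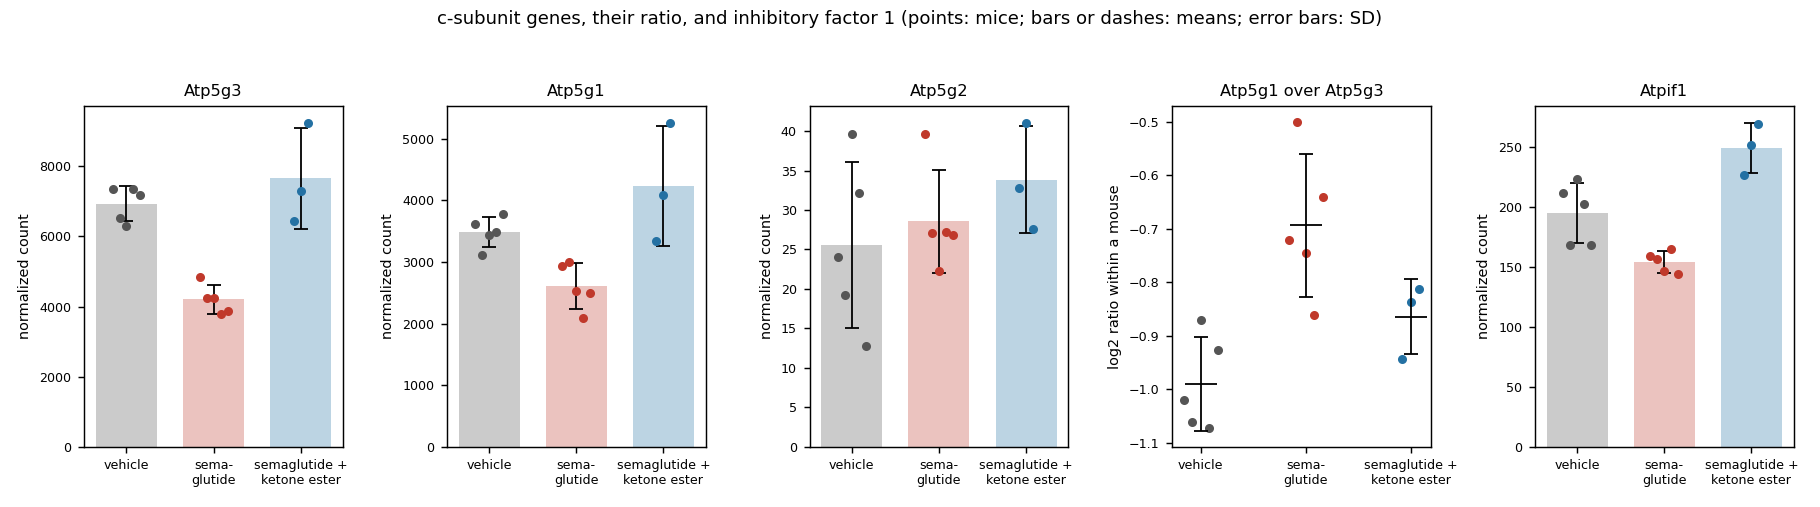
Normalized counts (y axis) of the c-subunit genes Atp5g3, Atp5g1 and Atp5g2 and of Atpif1, and the log2 ratio of Atp5g1 to Atp5g3 within each mouse, by group (x axis); points are mice, bars or dashes are means and error bars are SD. Atp5g3 and Atp5g1 are lower in all 5 semaglutide-treated mice, Atp5g2 overlaps between all groups, and the ratio runs from -0.86 to -0.50 with semaglutide against -1.07 to -0.87 in vehicle.

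The assembly factors were the most mixed group, with 5 of 9 called lower after semaglutide (median -0.37) and 4 of 9 called higher with ketone ester (median 0.39). Uqcc1, needed to make the mitochondrially encoded cytochrome b of complex III, had the lowest adjusted p. It stood at 2281, 2053, 2306, 2566 and 2211 in vehicle, 1754, 1350, 1456, 1170 and 1384 with semaglutide and 2027, 2180 and 2569 with the combination, without overlap between semaglutide and the others (-0.69 ± 0.11, limma adjusted p = 0.00158). Its partner Uqcc2 was at 1674, 1619, 1684, 1594 and 1539 in vehicle, 2005, 1749, 1733, 1231 and 1671 with semaglutide and 1744, 1710 and 1888 with the combination. Here the semaglutide values lay on both sides of vehicle (0.03 ± 0.11, limma adjusted p = 0.862), with mouse 16 lowest as in most members.

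Ttc19, which clears fragments of the Rieske protein from complex III, was at 755, 704, 824, 909 and 687 in vehicle, 649, 586, 577, 458 and 586 with semaglutide and 701, 774 and 750 with the combination. It was called lower (-0.44 ± 0.11, limma adjusted p = 0.0118). Its rise with ketone ester (0.38 ± 0.12, adjusted p = 0.0484) was lost on leaving out any mouse other than vehicle mouse 4 or semaglutide-treated mouse 13, at adjusted p-values of 0.0535 to 0.152. Bcs1l, which inserts the Rieske protein, and Uqcc3 were not called after semaglutide (limma adjusted p of 0.0818 and 0.0948). Of the complex II factors, Sdhaf2, which attaches flavin to Sdha, fell to 77.3% of the vehicle mean, Sdhaf3 to 66.5% and Sdhaf4 to 71.4%, and Sdhaf1, an iron-sulfur insertion factor, was at 94.5% and was not called.

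Some of these calls lay close to the threshold. Leaving out vehicle mouse 1, 4 or 5 or semaglutide-treated mouse 16 or 17 left 27 members called lower after semaglutide, the losses being Atp5c1, Atp5g1, Sdhaf4, Uqcr11 and Uqcrb each time. Leaving out vehicle mouse 2 took Atp5c1 and Uqcrb (30 called), vehicle mouse 3 took Atp5c1, Atp5g1 and Uqcrb (29 called), and semaglutide-treated mouse 15 took Atp5c1, Atp5g1, Sdhaf4 and Uqcr11 and added Atp5e (29 called). Without semaglutide-treated mouse 13 the count was 35, with Atp5e, Bcs1l and Uqcc3 added, and without mouse 14 it was 33, with Uqcrb lost and Atp5e and Atp5l added. Of the combination mice, leaving out mouse 21 took Atp5c1 and Uqcrb, and leaving out mouse 22 took Atp5c1 and added Atp5e. The other 27 calls were kept in each of these fits. Lower calls over all genes moved too, from 1625 with every mouse to 2320 without mouse 13 and 1122 without mouse 17. They were 1309, 1176 and 1322 without vehicle mouse 1, 4 or 5. In the remaining fits they lay between 1195 (without vehicle mouse 2) and 1510 (without combination mouse 19).

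The calls for ketone ester were more easily moved. Leaving out vehicle mouse 1, 2, 3 or 5 or semaglutide-treated mouse 15 left 32 called higher, with Atp5l and Ttc19 lost, and leaving out vehicle mouse 4 left 33, with Atp5l lost. Without semaglutide-treated mouse 14 the count was 32 (Bcs1l and Ttc19 lost), without mouse 16 it was 30 (Atp5d, Atp5l, Bcs1l and Ttc19 lost) and without mouse 17 it was 28 (Atp5c1 and Atp5e lost as well). Without mouse 13 it was 38, with Sdhaf1, Sdhaf3, Sdhaf4 and Uqcc3 added. Higher calls over all genes were 1118 with every mouse, 1961 without mouse 13 and 744 without mouse 17. Without any other vehicle or semaglutide-treated mouse they lay between 838 (mouse 15) and 1019 (mouse 16). Of the combination mice, leaving out mouse 19 left 31 (against 6.63% of all genes) and mouse 21 left 27 (against 4.2%). Among the 18 members still called without mouse 22 were Sdha and Sdhc, the core and haem subunits Uqcrc1, Uqcrc2 and Cyc1, Uqcrfs1, Cycs, Atp5a1, Atp5g3, Atp5j and Uqcc1, whereas Sdhb, Sdhd, Uqcrb, Uqcrq, Uqcr10, Uqcr11, Atp5b and Atp5g1 were among the 16 lost.

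ATP synthase can run backwards and split ATP, and inhibitory factor 1, encoded by Atpif1, blocks this. The gene is no member by symbol. It stood at 212, 169, 224, 203 and 169 normalized counts in vehicle, 160, 157, 147, 165 and 144 with semaglutide and 227, 252 and 269 with the combination. All semaglutide values were below all vehicle values and all combination values above them (-0.33 ± 0.10 for semaglutide against vehicle, limma adjusted p = 0.0290; 0.69 ± 0.11 for the combination against semaglutide, adjusted p = 0.00289; 0.36 ± 0.11 for the combination against vehicle, adjusted p = 0.272). The first of these calls was lost without vehicle mouse 1, 3 or 4 or semaglutide-treated mouse 15 or 17, at adjusted p-values of 0.0653 to 0.0707. The log2 ratio of Atpif1 to Atp5b differed between semaglutide and vehicle by 0.03 (exact permutation p = 0.857), less than the spread between mice.

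The partners of these complexes that the mitochondrial genome encodes were lower too. All 3 were called lower after semaglutide and all 3 higher with ketone ester, namely mt-Cytb, the cytochrome b of complex III (-0.81, limma adjusted p = 2.2e-04, and 0.78), and the ATP synthase genes mt-Atp6 (-0.59 and 0.57) and mt-Atp8 (-0.63 and 0.40). Among 8 further assembly factors, 4 were called lower after semaglutide and 4 higher with ketone ester. Those higher with ketone ester were Atpaf1, Tmem242, Hccs and Fmc1. Fmc1 was not called lower after semaglutide (limma adjusted p = 0.105), and Lyrm7 was not called higher with ketone ester (limma adjusted p = 0.0589). Those lower were the F1 chaperone Atpaf1 (-0.54), Tmem242 (-0.51), the Rieske chaperone Lyrm7 (-0.39) and Hccs, which attaches haem to the c-type cytochromes (-0.58). Atpaf2 and the membrane insertase Oxa1l had differences of 0.18 and 0.11 and were not called.

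Of 6 genes for the exchange of nucleotides and phosphate across the mitochondrial membranes, 3 were called lower, the outer membrane channels Vdac1 (-0.68, limma adjusted p = 2.3e-04) and Vdac3 (-0.27) and the adenine nucleotide carrier of muscle, Slc25a4 (-0.33). Vdac1 and Slc25a4 were called higher with ketone ester (0.67 and 0.37). Slc25a5 (-0.07), Vdac2 (-0.06) and the phosphate carrier Slc25a3 (-0.25) were not called. Of 4 genes linked to supercomplexes only Higd2a was called (-0.65, limma adjusted p = 0.00116, and 0.70 with ketone ester), while Cox7a2l was at 0.20.

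Markers of cell types in the muscle moved with the treatment groups in some lists and not in others, and their part in these results was not tested. The summed normalized count of 8 myofibre genes ran from 2377490 to 2858270 in vehicle, 1459080 to 2604320 with semaglutide and 3003790 to 3602520 with the combination, and 2 of the 8 were called lower after semaglutide (Acta1 and Myh4; 0 by edgeR and 2 by DESeq2) and 4 higher with ketone ester. The 4 tenocyte markers summed to 570 to 4614 in vehicle, 308 to 1677 with semaglutide and 2255 to 2705 with the combination, with 3 of 4 called lower, and 2 called higher (Tnmd and Kera) and 1 lower (Scx) with ketone ester. Of 4 fibroblast markers 3 were called lower (Pdgfra, Col1a1 and Col3a1), their sums being 4924 to 11241, 4490 to 6032 and 6253 to 10496, and Col1a1 and Col3a1 were called higher with ketone ester.

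The 4 globin genes summed to 1344 to 2269 in vehicle, 49.5 to 3098 with semaglutide and 2787 to 5467 with the combination. By limma 0 of the 4 were called lower after semaglutide (4 at an unadjusted p under 0.05, 0 by edgeR and by DESeq2) and 3 were called higher with ketone ester (0 by edgeR and by DESeq2). Markers of endothelium (3326 to 4057 in vehicle, 3237 to 3738 with semaglutide, 3498 to 4182 with the combination), macrophages and leukocytes (149 to 541, 203 to 814 and 220 to 459), adipocytes (459 to 1962, 125 to 7738 and 792 to 1732) and Schwann cells (685 to 1971, 646 to 2184 and 702 to 1103) had 0 of 4 genes each called between semaglutide and vehicle by limma and by edgeR, and DESeq2 called 1 adipocyte gene higher. At an unadjusted limma p under 0.05 there were 1, 0, 1 and 0 of 4. With ketone ester against semaglutide, 1 endothelial gene, Kdr, was called higher by limma (0.41, adjusted p = 0.0296) and 2 endothelial genes were by edgeR and by DESeq2. No gene of these lists was at 0 in every mouse.

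The scale of the values bears on the size of the fall. When columns were rescaled to equal totals, the median of all genes moved to 0.17 in the semaglutide against vehicle comparison and the calls over all genes went from 1459 higher and 1625 lower to 3262 higher and 929 lower. The members then had a median of -0.28, which is 0.45 below that of all genes, and 23 were called lower, against 7.55% of all genes. For the combination against semaglutide the median of all genes moved to -0.24, that of the members was 0.36, and 24 were called higher, against 4.97% of all genes. Uqcc2 alone of the members then fell below 0 in this comparison (-0.13).

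Single-gene levels carry a further limit, since several members share exon bases with a gene on the other strand in GENCODE vM21, and the strand setting of the counting is not given in the sources used here. The largest such overlaps were 1733 bases for Sdhaf1, 504 for Uqcrc2 with Pdzd9, 337 for Atp5f1 with Wdr77, 203 for Atp5f1 with Gm42890 and 182 for Atp5j with Gabpa. On its own strand, Atp5o shares 243 exon bases with another entry of the same name, whatever the strand setting. Atp5k, Atp5l, Atp5c1, Cycs, Uqcrh and others also have processed pseudogenes, whose reads the counting could have split.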

How the data were processed

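RNA of gastrocnemius muscle from 13 mice was measured by RNA-seq, 1 library per mouse. Total RNA was extracted with TRIzol, poly(A) libraries were made with a stranded kit and sequenced as short read pairs, and the reads were aligned to mm10 with DRAGEN. The authors deposited normalized counts, a signal in which each library's read counts are divided by a size factor; DESeq2 is named in the submitters' processing notes. The counting program and annotation are not given in the sources used here. All values were whole multiples of the step of their library within a tolerance of 0.1, so reads were recovered, giving the depths stated above. With no batch label that differs between mice, no within-batch value could be given.

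Groups came from the treatment label. The main test was limma 3.58.1 (R 4.3.3) on log2(normalized count + 1) over the 12303 of 21868 genes with a mean of at least 10, all 3 groups in 1 fit, with Benjamini-Hochberg adjustment. The 4 ratios were compared by exact permutation tests over mice. Alternatives were the pseudocount (0.5 or 5), no filter, other scalings, sample weights, a variance trend, only the 2 groups compared, each of the 13 mice left out, and edgeR 4.0.16 and DESeq2 1.42.0 on recovered reads. The fit was tested on simulated counts with the same spread setting for all genes and groups, so unequal spreads between groups were not covered. Values in every mouse are given for the 2 members with the lowest and the 1 with the highest adjusted p in each role group for semaglutide against vehicle, for the RT-qPCR genes, the c-subunit genes and Atpif1. The members, lists and rules were chosen with earlier results of these data known. Promoters are from RefSeq, and exon lengths and overlaps from GENCODE vM21, both on GRCm38. Mouse numbers do not pair mice across groups.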

Additional observations from a re-analysis of the deposited data

Results flagged for a closer look

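Among the per-group spreads tested in groups of 5, 1 value stood apart by Dixon's test: the normalized count of Atp5g2 in semaglutide-treated mouse 13 was 39.7, while the other 4 mice of the group lay between 22.2 and 27.2. Chance alone marks about 1 in 20 groups in this way, and 60 groups were tested. The same mouse had the highest value of its group in 25 of the 40 members.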

How the results depend on the processing

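The count of members called lower after semaglutide (32) stayed between 23 and 35 under all alternatives, and the comparison of the combination with vehicle gave 0 calls in each. Lower calls over all genes after semaglutide ran from 929 with equal totals to 2464 with sample weights. The count called higher with ketone ester (34) fell to 17 with only the 2 groups compared, where the vehicle mice no longer count towards the spread. Vehicle had the lowest median coefficient of variation over the members, 6.83%, against 13.0% with semaglutide and 14.6% with the combination. Leaving out 1 mouse at a time gave 18 to 38, the lowest without mouse 22 and the highest without mouse 13. With only the 2 groups compared and without mouse 22 the calls higher over all genes fell too, from 1118 to 391 and 440. Without mouse 13 they rose to 1961. With columns rescaled to equal totals, the medians after semaglutide moved in every role group. They became -0.37 for complex II, -0.40 for complex III, -0.49 for cytochrome c, -0.25 for complex V and -0.19 for assembly factors. Ketone ester medians became 0.35 for complex II, 0.39 for complex III, 0.58 for cytochrome c, 0.38 for complex V and 0.15 for assembly factors. All kept the same direction as before. Ratios near 0 changed sign when mice were left out, with ranges for semaglutide against vehicle of -0.0427 to 0.109 for Atpif1 over Atp5b and -0.0518 to 0.057 for Cycs over Cyc1, and for Cycs over Cyc1 of -0.0979 to 0.0145 for the combination against semaglutide and -0.111 to 0.0325 against vehicle. Uqcc2 ranged from -0.037 to 0.139 for semaglutide against vehicle and from -0.0047 to 0.171 for the combination against semaglutide, and was -0.13 there with equal totals. By the criterion of the study's methods, an unadjusted p under 0.05 across the 3 groups and means that differ by at least 1.5-fold, 22 of 40 members were altered, as were 1976 of 12303 genes. The edgeR and DESeq2 tests each called 34 members lower after semaglutide and 36 and 35 higher with ketone ester. Over all genes they called 1542 and 1729 lower after semaglutide and 1202 and 1355 higher with ketone ester. No paired analysis was possible because the mouse numbers differ between the groups.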
